A study of Caenorhabditis elegans with 9 samples.

Results

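Expression of the peroxisomal genes of *Caenorhabditis elegans* was followed in 26 genes. They were every row of the count table with a symbol made of *prx-*, *acox-* or *pmp-* and a number, plus *daf-22*, *dhs-28* and *maoc-1*. The set held 11 peroxin genes (*prx*), 7 acyl-CoA oxidase genes (*acox*), 5 transporter genes named after peroxisomal membrane proteins (*pmp*) and the 3 named enzymes, out of 46926 rows. The symbols alone define the set, which was drawn up with earlier results of these data known. All 26 passed the filter on low counts, which kept 14332 genes for testing.

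RNA-seq was done on whole worms of the wild-type strain N2, with 3 libraries for each of 3 feeding conditions. In DR0, worms were given no bacteria, in DR1 they were given HT115 bacteria (a laboratory strain of *Escherichia coli*) diluted to 1200000 colony-forming units (c.f.u.) per ml, and in AL (ad libitum) they were given HT115 at 1.2e+10 c.f.u. per ml. The conditions asked how transcription responds to dietary restriction on solid plates, called sDR in the study. Every group had been raised on HT115 to adult day 1, was then kept for 24 h on plates with 10 µg per ml of kanamycin, which keeps the bacteria from growing, and was harvested at adult day 2. Whether replicate libraries stand for separate cultures is not given in the sources used here, and the p values measure only the spread between libraries, which may be technical. In RNA of whole animals, fewer cells of a type and less RNA per cell cannot be told apart.

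Peroxisomes are small organelles that shorten very long or branched fatty acids by beta-oxidation and break down the hydrogen peroxide that this produces. Peroxins build the organelle and import its enzymes from the cytosol, and ABC transporters in its membrane carry the acyl-CoA substrates inside. An acyl-CoA oxidase then performs the opening step of each cycle, MAOC-1 hydrates the product, DHS-28 oxidises it and the thiolase DAF-22 releases a shortened acyl-CoA. In *C. elegans* the same cycle trims the side chains of ascarosides, the pheromones that signal crowding and induce the dauer larva, and it is best known from the intestine and the hypodermis.

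The libraries held 9203611 to 12012750 counts, and the members took 0.0939% to 0.114% of them. Levels are given as CPM, that is counts relative to the library total after TMM scaling, which sets each library by the bulk of its genes, and differences are log2 fold changes (log2FC) with their s.e. in parentheses. A gene is called higher or lower where the adjusted p of edgeR's quasi-likelihood test was under 0.05. The TMM factors were 0.944 to 0.949 in DR0, 1.156 to 1.163 in DR1 and 0.909 to 0.914 in AL. Scaling to total counts moved the median of all genes by 0.055 in DR0 against AL, by 0.347 in DR1 against AL and by -0.291 in DR0 against DR1. Values under total-count scaling are therefore given beside the calls of members that they change, and for the list counts given against AL.

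Without food the members split evenly. In DR0 against AL, 10 of 26 members were higher and 10 were lower, beside 29.6% and 31.0% of all genes tested, and their median log2FC was 0.113 against 0.034 for all genes. With a log2FC past 1 or -1 required as well, no member was higher and 4 were lower, beside 11.3% and 8.16% of all genes. In DR1 against AL, 6 members were higher and 9 were lower, beside 28.5% and 31.6% of all genes, with a median of -0.053 against 0.033. Under total-count scaling this split turned to 14 higher and 6 lower. With the fold required, 1 member was higher and 4 were lower, beside 10.6% and 8.62%. In DR0 against DR1, 7 were higher and 7 lower, beside 21.2% and 17.8% of all genes, and 2 were higher and 12 lower under total-count scaling. No member passed the fold in that comparison, where 1.44% and 1.03% of all genes did. These counts, and those of families and lists below, are given as a description beside these shares of all genes. Nothing particular to the members, families or lists is read from them. The DR0 and DR1 comparisons with AL use the same 3 AL libraries and are not independent.

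**Figure D1:**
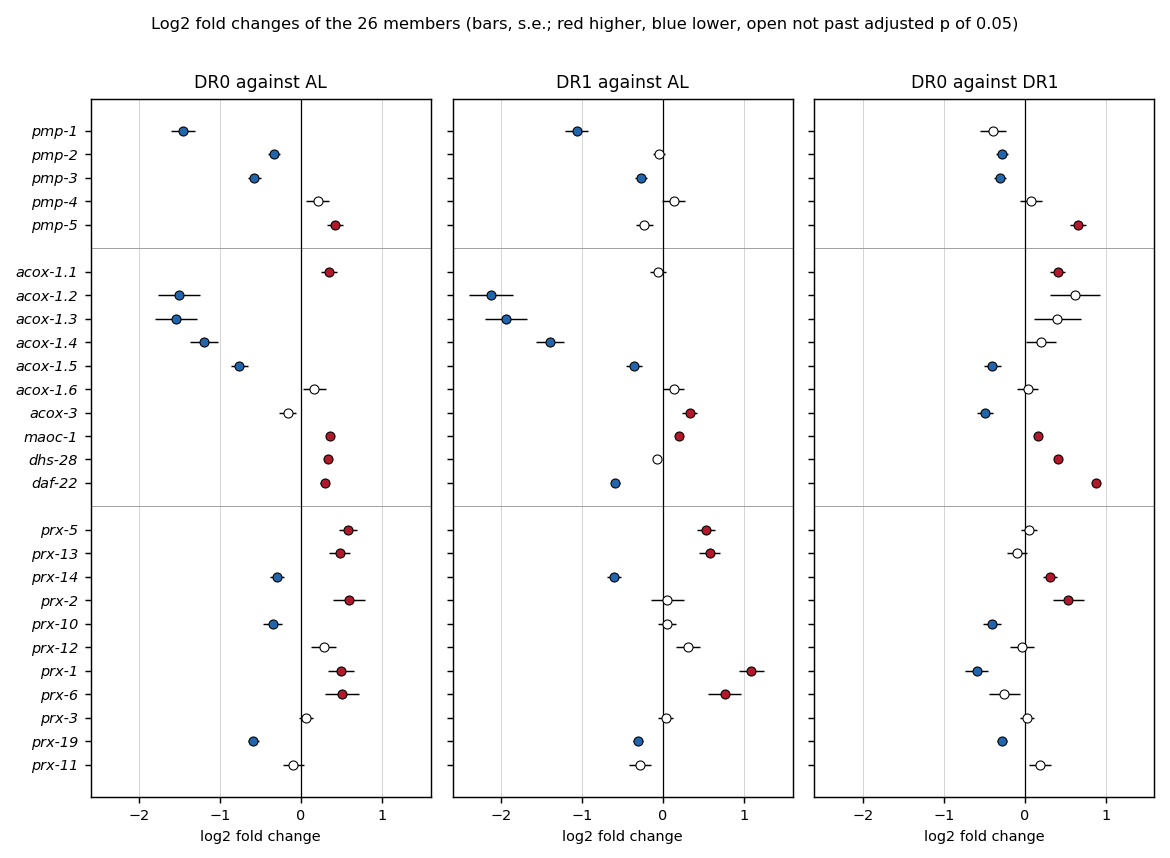
Log2 fold changes (x axis) of the 26 members (y axis, transporters, beta-oxidation enzymes and peroxins from top to bottom) in DR0 against AL, DR1 against AL and DR0 against DR1. Points are edgeR estimates with bars of 1 s.e., red where higher and blue where lower at an adjusted p under 0.05 and open where neither, and *pmp-1*, *acox-1.2*, *acox-1.3* and *acox-1.4* lie below -1 in both comparisons with AL.

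The pmp genes, named after peroxisomal membrane proteins, encode ABC transporters of the ABCD family. Where each of their products sits was not measured here. In DR0 against AL, 1 of 5 was higher and 3 were lower, beside 29.6% and 31.0% of all genes tested. In DR1 against AL none was higher and 2 were lower, beside 28.5% and 31.6% (2 higher and 1 lower under total-count scaling). The deepest fall was that of *pmp-1*, a relative of the mammalian ABCD3 protein. It stood at 7.96, 9.39 and 6.35 CPM in DR0, at 10.7, 9.48 and 10.9 CPM in DR1 and at 20.8, 23.6 and 20.8 CPM in AL. Every food-restricted library lay below every AL library. The log2FC was -1.46 (0.152) in DR0, with an adjusted p of 1.57e-08, and -1.06 (0.142) in DR1, with an adjusted p of 7.47e-07 (edgeR's quasi-likelihood test). DR0 lay below DR1 in all libraries without passing the test, with a log2FC of -0.40 (95% interval -0.73 to -0.07) and an adjusted p of 0.0527. This last difference passed with a mean CPM of at least 1 as the filter (adjusted p 0.0474), without DR1 replicate 2 (-0.46, adjusted p 0.0385), without DR0 replicate 2 (-0.54, adjusted p 0.0196) and under total-count scaling (-0.69, adjusted p 0.00093).

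Its neighbour on chromosome II, *pmp-2*, was also lower in DR0 than in AL, but by less, and it was not called lower in DR1. *pmp-1* lies at chrII:6880704-6883754 and *pmp-2* at chrII:6884040-6887805, both on the minus strand of WBcel235 and 286 bases apart. *pmp-2* averaged 43.9 ± 1.31 CPM in DR0, 53.6 ± 3.56 CPM in DR1 and 55.4 ± 3.05 CPM in AL (SD, n = 3 each). It was lower in DR0 than in AL, with a log2FC of -0.33 (0.075) and an adjusted p of 0.000569, and lower in DR0 than in DR1, at -0.29 (0.074). In DR1 against AL it gave -0.05, with a 95% interval of -0.20 to 0.10, but 0.30 with an adjusted p of 0.000949 under total-count scaling. The ratio of *pmp-1* to *pmp-2* counts within a library, which no scaling of libraries touches, was 0.14 to 0.215 in DR0, 0.164 to 0.209 in DR1 and 0.353 to 0.441 in AL. No DR0 or DR1 library reached the lowest AL ratio.

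*pmp-3* was a reference gene of the study's qRT-PCR, together with *act-3*, while *rps-26* and *rpl-35* served as alternatives. According to the study, a check with these alternatives, which covered its dietary restriction assays, gave similar results. The gene lies at chrV:14646739-14653493 on the plus strand. Its primer pair is shown because the level of this gene set the scale of those assays, all 21 bases of each primer being given in lower case from 5′ to 3′.
pmp-3 forward: gttcccgtgttcatcactcat
pmp-3 reverse: acaccgtcgagaagctgtaga

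In the counts, *pmp-3* stood at 44.0, 41.6 and 40.0 CPM in DR0, at 47.6, 56.5 and 51.4 CPM in DR1 and at 65.0, 59.3 and 63.0 CPM in AL. Under TMM scaling the 3 conditions did not overlap, and the level was lowest without food. It was lower in DR0 than in AL, with a log2FC of -0.58 (0.078) and an adjusted p of 8.7e-07, and lower in DR0 than in DR1, at -0.31 (0.077) and 0.0024. In DR1 against AL it was lower at -0.27 (0.074), with an adjusted p of 0.00331, but total-count scaling turned this to 0.08, with an adjusted p of 0.357. The other reference genes were not level across the conditions either. The actin gene *act-3* gave -0.56 (0.047) in DR0 against AL and -1.02 (0.047) in DR1 against AL. The ribosomal protein gene *rps-26* gave 0.28 (0.051) in DR0 and -0.64 (0.052) in DR1. Another, *rpl-35*, gave 0.45 (0.036) in DR0 and -0.44 (0.036) in DR1. All of these values passed the test and kept their direction under total-count scaling, where *rpl-35* stood at -0.09 in DR1 against AL. In DR0 against AL the 4 genes thus divided into 2 lower and 2 higher.

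*pmp-5* was, unlike *pmp-3*, highest without food. It averaged 37.7 ± 1.09 CPM in DR0, 23.9 ± 1.90 CPM in DR1 and 28.2 ± 3.67 CPM in AL (SD, n = 3 each). It was higher in DR0 than in AL, with a log2FC of 0.42 (0.101) and an adjusted p of 0.001, and higher in DR0 than in DR1, at 0.65 (0.101) and 1.15e-05. DR1 against AL gave -0.23 and an adjusted p of 0.0583, which was 0.0155 without AL replicate 3 and 0.0324 without DR1 replicate 3, and total-count scaling gave 0.12. The ratio of *pmp-3* to *pmp-5* counts was 1.07 to 1.13 in DR0, against 1.98 to 2.54 in DR1 and 2.02 to 2.54 in AL. *pmp-4* passed in no comparison under TMM scaling and averaged 16.6 ± 2.63 CPM in DR0, 15.7 ± 1.96 CPM in DR1 and 14.4 ± 1.1 CPM in AL. Its log2FC of DR0 against AL was 0.20, with a 95% interval of -0.09 to 0.50.

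**Figure D2:**
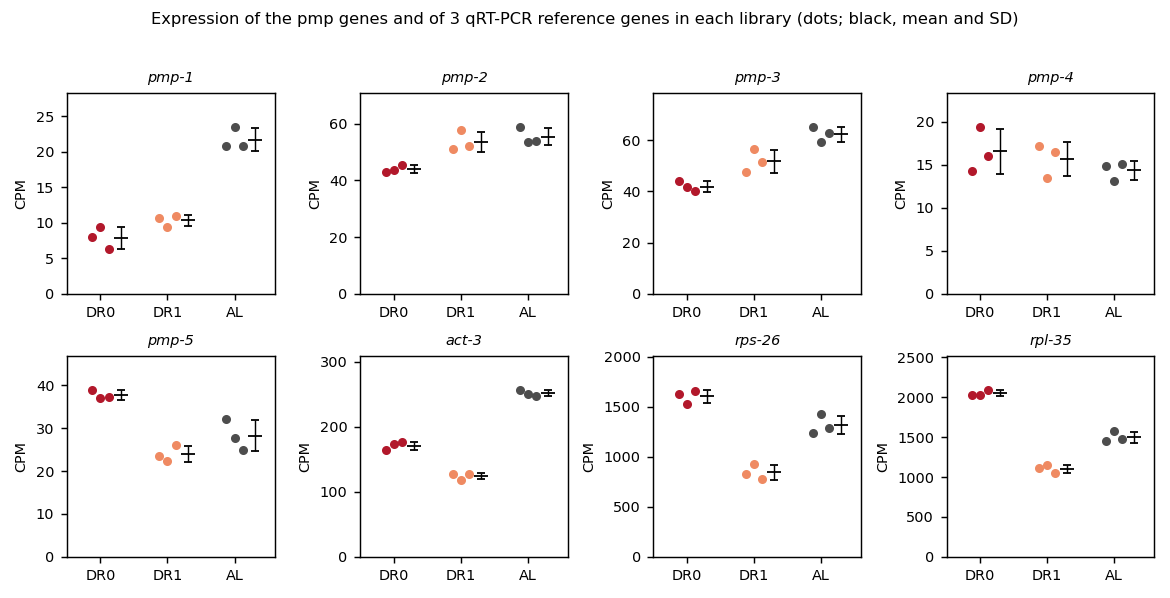
CPM (y axis, from 0) of the 5 pmp genes and of *act-3*, *rps-26* and *rpl-35* in DR0, DR1 and AL (x axis), with a dot for each of 3 libraries and the mean and SD in black. The AL libraries of *pmp-1* lie at 20.8 CPM or above, and those of DR0 and DR1 at 10.9 CPM or below.

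The acyl-CoA oxidases pass electrons to oxygen and so release hydrogen peroxide. In both comparisons with AL, 4 of 7 were lower and 1 was higher, and 3 were lower past the fold, namely *acox-1.2*, *acox-1.3* and *acox-1.4*. In DR1 against AL the split was 3 higher and 3 lower under total-count scaling. Of all genes tested, 29.6% were higher and 31.0% lower in DR0 against AL, and 28.5% and 31.6% in DR1 against AL. The shares lower past the fold were 8.16% in DR0 and 8.62% in DR1. Different oxidases, alone or as dimers, act on ascaroside side chains of different length. *acox-1.1* to *acox-1.4* lie in tandem on the plus strand, within chrI:12938555-12954003, with *acox-1.1* ending 53 bases before *acox-1.2* and *acox-1.3* ending 35 bases before *acox-1.4*. Genes of such a family can share reads, and the counting was over whole genes, so their separate levels carry this uncertainty. How far reads were shared was not measured, here or for the neighbours *pmp-1* and *pmp-2*.

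*acox-1.2* stood at 2.08, 2.10 and 3.27 CPM in DR0, at 1.82, 1.46 and 1.6 CPM in DR1 and at 7.78, 6.43 and 7.23 CPM in AL. These are low levels, 18 to 33 counts in DR0, 16 to 21 in DR1 and 56 to 79 in AL, and still all 6 food-restricted libraries lay below the AL libraries. The log2FC was -1.51 (0.263) in DR0, with an adjusted p of 3.05e-05, and -2.13 (0.271) in DR1, with an adjusted p of 3.51e-07. *acox-1.3* had 2.54, 4.53 and 2.88 CPM in DR0, 3.01, 3.01 and 1.6 CPM in DR1 and 10.9, 8.50 and 9.61 CPM in AL. Its highest library under restriction held less than its lowest AL library, at a log2FC of -1.54 (0.258) in DR0 and -1.94 (0.259) in DR1, with adjusted p of 1.8e-05 in DR0 and 7.38e-07 in DR1. *acox-1.4* had 5.54, 6.52 and 5.66 CPM in DR0, 5.29, 4.38 and 5.72 CPM in DR1 and 14.6, 13.4 and 12.6 CPM in AL. The groups again did not overlap with AL, and the log2FC was -1.19 (0.173) in DR0 and -1.39 (0.171) in DR1, with adjusted p of 2.6e-06 in DR0 and 1.99e-07 in DR1.

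Between DR0 and DR1 none of the 3 genes passed. The log2FC was 0.62 for *acox-1.2*, with a 95% interval of -0.01 to 1.25. It was 0.40 for *acox-1.3* (-0.21 to 1.01) and 0.20 for *acox-1.4* (-0.19 to 0.59). The DR0 libraries of *acox-1.2* all lay above those of DR1, at an unadjusted p of 0.0546 and an adjusted p of 0.117, and those of the other 2 genes overlapped.

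The fourth gene of the tandem, *acox-1.1*, whose product is an oxidase of ascaroside side chains, did not share the fall. It had 33.0 to 37.2 CPM in DR0, 25.3 to 27.8 CPM in DR1 and 25 to 30.8 CPM in AL. It was higher in DR0 than in AL, with a log2FC of 0.34 (0.098) and an adjusted p of 0.00418, and higher in DR0 than in DR1, at 0.40 (0.096) and 0.00155, the second call being lost under total-count scaling (0.11, adjusted p 0.364). DR1 against AL gave -0.06, with a 95% interval of -0.26 to 0.14, but 0.29 and an adjusted p of 0.0135 under total-count scaling. The ratio of *acox-1.2* to *acox-1.1* counts was 0.0564 to 0.0914 in DR0, 0.0525 to 0.0671 in DR1 and 0.233 to 0.311 in AL. All restricted libraries lay below the lowest AL library in this ratio.

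The remaining oxidase genes lie on other chromosomes. *acox-1.5* averaged 21.5 ± 0.448 CPM in DR0, 28.4 ± 3.33 CPM in DR1 and 36.6 ± 3.19 CPM in AL (SD, n = 3 each). It was lower in DR0 than in AL at -0.76 (0.106), with an adjusted p of 1.35e-06, and lower in DR0 than in DR1 at -0.40 (0.106), with 0.00365. DR1 was lower than AL at -0.36 (0.1), with 0.00339, a call lost under total-count scaling (-0.01, adjusted p 0.912). *acox-3* alone among the enzymes had its highest mean in DR1 under TMM scaling. It averaged 22.4 ± 1.42 CPM in DR0, 31.5 ± 2.25 CPM in DR1 and 25.1 ± 0.730 CPM in AL. The rise in DR1 over AL was 0.33 (0.097), with an adjusted p of 0.00528, and DR0 was lower than DR1 by a log2FC of -0.50 (0.098), with 0.000234. DR0 against AL did not pass, at -0.17. *acox-1.6* passed in none of the comparisons under TMM scaling, with 13.4 to 17.8 CPM in DR0, 14.7 to 17.3 CPM in DR1 and 13.8 to 15.1 CPM in AL.

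The genes of the later steps were the most abundant members. *maoc-1* encodes the enoyl-CoA hydratase and lies at chrII:7196276-7197495. It stood at 203.2, 186.8 and 188.4 CPM in DR0, at 175.6, 167.5 and 174.8 CPM in DR1 and at 151.9, 151.6 and 148.4 CPM in AL. Under TMM scaling the levels were lower the more bacteria were given, with no overlap. The log2FC was 0.36 (0.048) in DR0 against AL, with an adjusted p of 8.77e-07, and 0.20 (0.048) in DR1 against AL, with 0.00102. DR0 was above DR1 by 0.16 (0.047) and 0.00894, but this call was lost without DR0 replicate 1 (0.12, adjusted p 0.0685), and total-count scaling put DR0 below DR1 (-0.13, adjusted p 0.0201). Of the exon bases of *maoc-1*, 9.88% overlap *E04F6.6* on the opposite strand, and reads were counted without strand.

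*dhs-28* encodes the hydroxyacyl-CoA dehydrogenase and lies at chrX:6818438-6820080. It stood at 195.8, 199.2 and 191.3 CPM in DR0, at 143.3, 143.9 and 154.9 CPM in DR1 and at 159.7, 156.8 and 150.9 CPM in AL. Worms without food stood apart, and DR1 overlapped AL. DR0 was higher than AL by 0.33 (0.048), with an adjusted p of 3.09e-06, and higher than DR1 by 0.41 (0.048), with 2.16e-07. The difference from DR1 was 0.11, with an adjusted p of 0.0517, under total-count scaling. DR1 against AL gave -0.08, with a 95% interval of -0.18 to 0.02, and 0.27 with an adjusted p of 3.73e-05 under total-count scaling. Of its exon bases, 5.39% overlap *gei-15* on the opposite strand.

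*daf-22* encodes the thiolase, the enzyme without which worms make no dauer pheromone, and lies at chrII:12423518-12425694. It stood at 145.9, 139.5 and 134.6 CPM in DR0, at 76.8, 77.2 and 74.4 CPM in DR1 and at 108.8, 113.2 and 120.7 CPM in AL. The level was lowest with diluted bacteria and highest with none, and no libraries of different conditions overlapped. DR0 was higher than AL, with a log2FC of 0.29 (0.054) and an adjusted p of 6.46e-05, and DR1 was lower than AL, at -0.59 (0.055) and 2.62e-09. DR0 was higher than DR1 by 0.88 (0.055), with 4.29e-12, the largest fitted difference between DR0 and DR1 among the 26 members under TMM scaling. All 3 calls held under total-count scaling, at 0.35 for DR0 against AL, -0.24 for DR1 against AL and 0.59 for DR0 against DR1. The pattern of higher in DR0, lower in DR1 and higher in DR0 than in DR1 was found in no other member and in 366 (2.55%) of the genes tested.

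Within a library *daf-22* and *maoc-1* changed their proportion with diluted food. The ratio of their counts was 0.718, 0.747 and 0.714 in DR0, 0.437, 0.461 and 0.426 in DR1 and 0.716, 0.746 and 0.814 in AL. DR0 and AL overlapped, and all DR1 libraries lay below both. The ratio of *dhs-28* to *maoc-1* moved less, with 0.964 to 1.07 in DR0, 0.816 to 0.886 in DR1 and 1.02 to 1.05 in AL. These pairs, like the other ratios given, were chosen after the values had been seen.

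**Figure D3:**
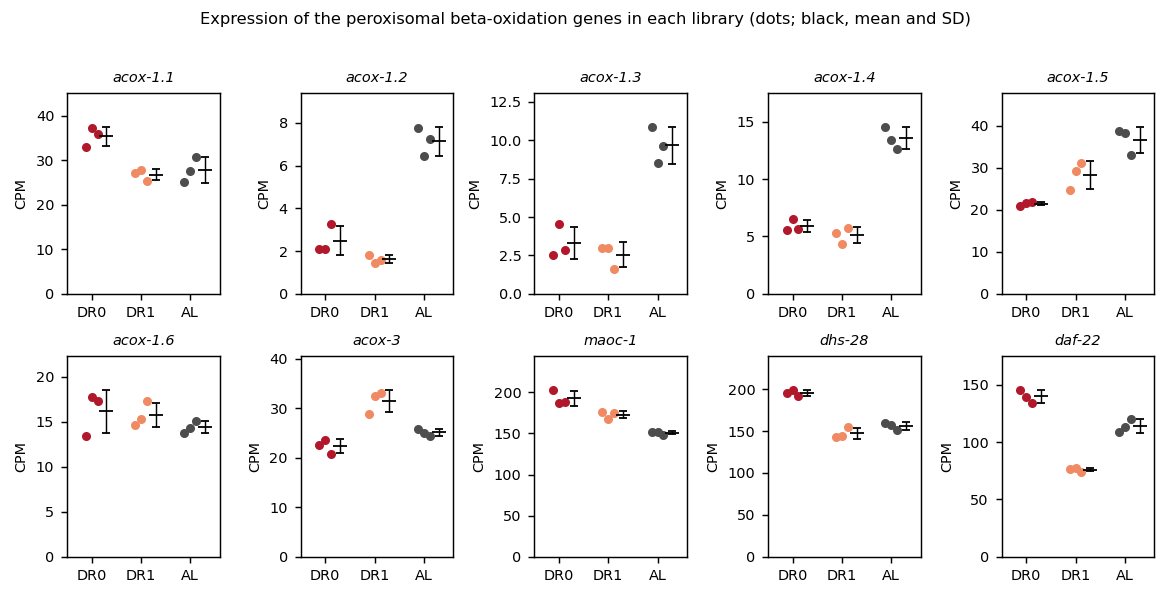
CPM (y axis, from 0) of the 7 acox genes, *maoc-1*, *dhs-28* and *daf-22* in DR0, DR1 and AL (x axis), with a dot for each of 3 libraries and the mean and SD in black. The DR1 libraries of *daf-22* lie at 74.4 to 77.2 CPM, below the other conditions, and *acox-1.2*, *acox-1.3* and *acox-1.4* are high in AL only.

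**Figure D4:**
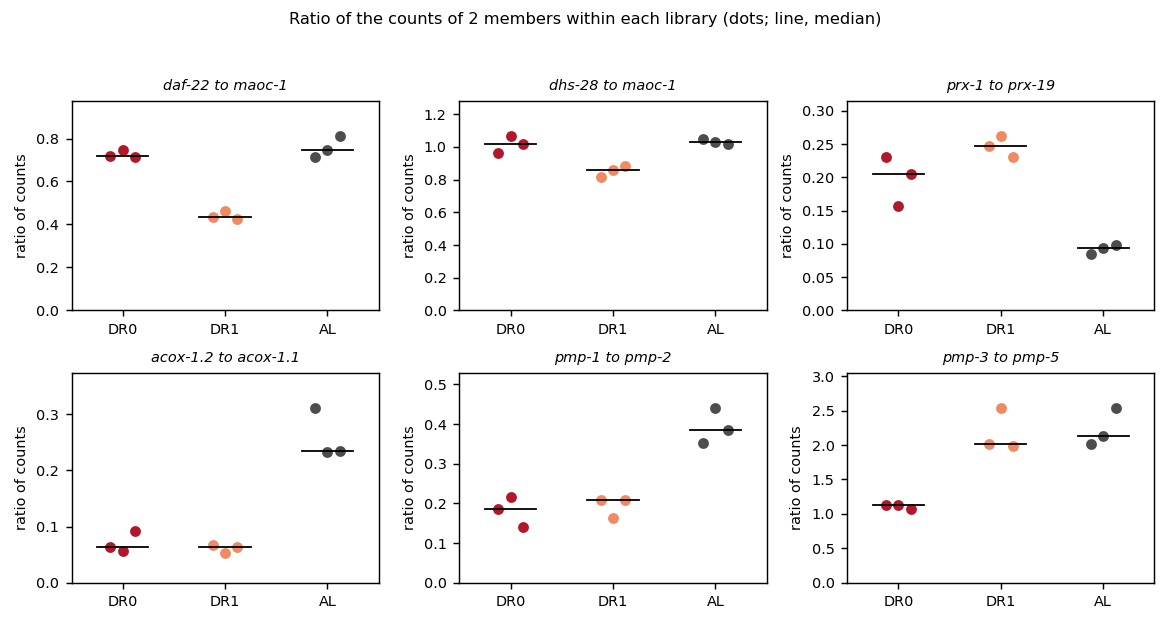
Ratio of the counts of 2 members within each library (y axis, from 0) in DR0, DR1 and AL (x axis), with a dot for each library and a line at the median. The ratio of *daf-22* to *maoc-1* is lowest in DR1, those of *acox-1.2* to *acox-1.1* and *pmp-1* to *pmp-2* are highest in AL, and that of *pmp-3* to *pmp-5* is lowest in DR0.

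The peroxins are named after the PEX genes of yeast and mammals, from which most of the roles given here are known. Of the 11 genes, 5 were higher and 3 lower in DR0 against AL, beside 29.6% and 31.0% of all genes tested. In DR1 against AL, 4 were higher and 2 lower, beside 28.5% and 31.6% (7 higher and 1 lower under total-count scaling). In DR0 against DR1, 2 were higher and 3 lower, beside 21.2% and 17.8% (0 higher and 6 lower under total-count scaling). Under TMM scaling the highest mean lay in DR1 for 5 of 11 peroxins (45.5%), for 1 of 10 enzyme genes and for none of the 5 pmp genes, against 30.3% of all genes tested. As shares of total counts it lay in DR1 for 9 of 11 peroxins (81.8%), 3 of 10 enzyme genes and 3 of 5 pmp genes, against 56.2% of all genes.

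*prx-5* encodes the receptor that binds the C-terminal targeting signal of enzymes in the cytosol and carries them to the organelle. It had 35.7 to 46.9 CPM in DR0, 36.4 to 41.8 CPM in DR1 and 24.9 to 30.9 CPM in AL. Both restricted conditions lay above AL and overlapped each other. The log2FC was 0.58 (0.109) in DR0, with an adjusted p of 7.03e-05, and 0.53 (0.107) in DR1, with 0.000163. DR0 against DR1 gave 0.05 and an adjusted p of 0.741.

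The RNA of the genes for the docking proteins that receive this receptor at the membrane went opposite ways. *prx-13* averaged 21.2 ± 0.353 CPM in DR0, 22.8 ± 4.16 CPM in DR1 and 15.2 ± 0.310 CPM in AL (SD, n = 3 each), and it was higher in DR0 at 0.48 (0.132) and in DR1 at 0.58 (0.128). The adjusted p was 0.0033 for DR0 and 0.000464 for DR1, and DR0 was lower than DR1 under total-count scaling only (-0.39, adjusted p 0.0111). *prx-14* averaged 43.4 ± 4.77 CPM in DR0, 35 ± 2.02 CPM in DR1 and 53.4 ± 4.58 CPM in AL. It was lower in DR0 at -0.30 (0.088), where 1 of the libraries overlapped AL, and in DR1 at -0.61 (0.088), with adjusted p of 0.00572 in DR0 and 2.33e-06 in DR1. DR0 exceeded DR1 by 0.31 (0.090), with 0.0075, a call lost without DR0 replicate 3 (0.22, adjusted p 0.0851) and under total-count scaling (0.02, adjusted p 0.881).

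The genes of the RING peroxins, which in yeast and mammals attach ubiquitin to the receptor so that it can be recycled, did not move as a group. *prx-2* had 8.65 to 11.1 CPM in DR0, 5.83 to 7.85 CPM in DR1 and 5.33 to 8.62 CPM in AL. It was higher in DR0 than in AL by 0.59 (0.197), with an adjusted p of 0.0125, but not without AL replicate 1 (0.45, adjusted p 0.0761) or DR0 replicate 3 (0.52, adjusted p 0.0587). It was also higher in DR0 than in DR1, by 0.54 (0.191) and 0.0282, a call lost with DESeq2 (adjusted p 0.053), under total-count scaling (0.25, adjusted p 0.308) and without any 1 of DR1 replicates 1 and 2 and DR0 replicates 2 and 3. Of the exon bases of *prx-2*, 41.5% overlap *ZK809.8* on the opposite strand, so that reads of these genes cannot be told apart there. *prx-10* averaged 19.9 ± 0.499 CPM in DR0, 26.4 ± 3.42 CPM in DR1 and 25.4 ± 2.13 CPM in AL, and it was lower in DR0 than in AL at -0.35 (0.115) and than in DR1 at -0.40 (0.113), with adjusted p of 0.0114 and 0.00594. The call against AL was lost without AL replicate 3 (-0.31, adjusted p 0.0505), and DR1 exceeded AL under total-count scaling only (0.40, adjusted p 0.00291). *prx-12* passed in no comparison under TMM scaling, with AL replicate 1 at 12.2 CPM and the other 8 libraries at 20.1 to 24.6 CPM. Its log2FC was 0.28 in DR0 and 0.31 in DR1 against AL, and both passed without AL replicate 3, with adjusted p of 0.0392 in DR0 and 0.0246 in DR1. The DR1 value also passed without AL replicate 2 (adjusted p 0.0484) and without the filter on low counts (0.0478).

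*prx-1* and *prx-6* encode the AAA ATPases that pull the used receptor back out of the membrane. *prx-1*, at chrX:14313927-14326726, stood at 13.3, 9.17 and 12.4 CPM in DR0, at 17.4, 17.5 and 17.7 CPM in DR1 and at 7.78, 7.93 and 8.88 CPM in AL. Under TMM scaling it was the only member higher past the fold in any comparison, the DR1 libraries lay close together above all others, and DR0 lay between DR1 and AL. The log2FC was 0.50 (0.160) in DR0 against AL, with an adjusted p of 0.00998, and 1.09 (0.150) in DR1 against AL, with 1.16e-06. DR0 was lower than DR1, at -0.59 (0.144) and 0.00184. Without DR0 replicate 1 the call of DR0 against AL was lost (0.39, adjusted p 0.0601). *prx-6* averaged 8.16 ± 0.643 CPM in DR0, 9.75 ± 1.52 CPM in DR1 and 5.79 ± 1.63 CPM in AL. It was higher in DR1 by 0.76 (0.202), with an adjusted p of 0.00238, and in DR0 by 0.51 (0.211), with 0.0409. In DR0 this did not hold without AL replicate 3 (0.29, adjusted p 0.254), without AL replicate 1, without any 1 DR0 replicate, without the filter on low counts and with DESeq2 (adjusted p 0.101). DR0 lay below DR1 under total-count scaling only (-0.55, adjusted p 0.0229).

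*prx-19* and *prx-3* encode the chaperone and its membrane anchor that insert proteins into the peroxisomal membrane. *prx-19* was the most abundant peroxin per kilobase of exon and averaged 58.8 ± 1.67 CPM in DR0, 71.4 ± 5.19 CPM in DR1 and 88.6 ± 3.72 CPM in AL (SD, n = 3 each). Under TMM scaling its levels followed the bacterial dose with no overlap. It was lower in DR0 than in AL at -0.59 (0.066), with an adjusted p of 5.26e-08, lower in DR0 than in DR1 at -0.28 (0.066), with 0.00138, and lower in DR1 than in AL at -0.31 (0.064), with 2e-04. Total-count scaling turned the last of these to 0.04, with an adjusted p of 0.62. *prx-3* passed in no comparison under TMM scaling, and its log2FC in DR0 against AL was 0.06, with a 95% interval of -0.13 to 0.25. The ratio of *prx-1* to *prx-19* counts was 0.157 to 0.231 in DR0, 0.23 to 0.263 in DR1 and 0.0848 to 0.0991 in AL. No restricted library came down to the AL ratios.

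*prx-11* is related to the PEX11 genes of peroxisome division and lies 17612 bases from *acox-1.4*. It averaged 16.5 ± 1.42 CPM in DR0, 14.5 ± 2.14 CPM in DR1 and 17.6 ± 0.359 CPM in AL. DR1 lay below AL in all libraries at -0.28 and an adjusted p of 0.0638, which was 0.0172 without DR1 replicate 2 and 0.0477 with limma-voom. *prx-11*, *prx-3*, *prx-12*, *acox-1.6* and *pmp-4* were the 5 members that passed in none of the 3 comparisons, as were 3475 (24.2%) of all genes tested. Under total-count scaling *prx-3* (0.38), *prx-12* (0.66), *acox-1.6* (0.48) and *pmp-4* (0.48) passed as higher in DR1 than in AL, and *prx-3* as lower in DR0 than in DR1 (-0.27).

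**Figure D5:**
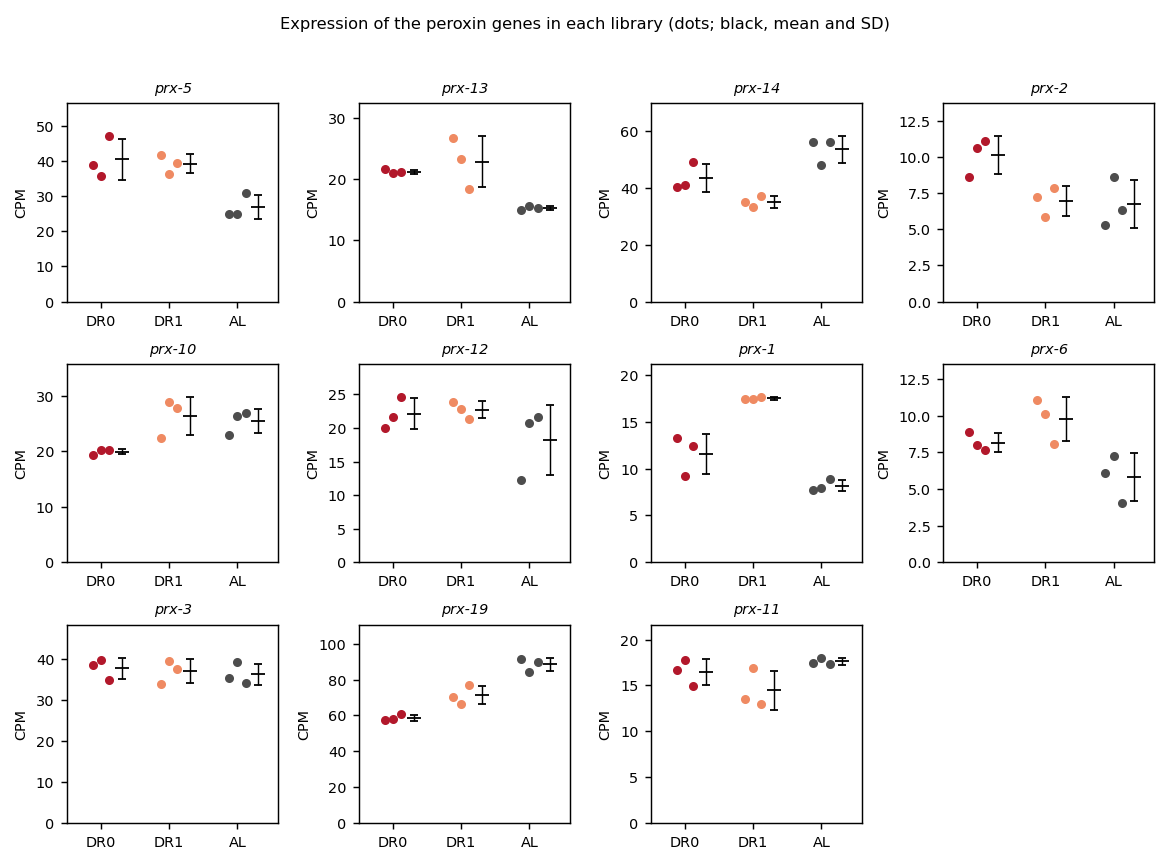
CPM (y axis, from 0) of the 11 peroxin genes in DR0, DR1 and AL (x axis), with a dot for each of 3 libraries and the mean and SD in black. The DR1 libraries of *prx-1* lie at 17.4 to 17.7 CPM, above those of DR0 and AL, while *prx-19* is highest in AL.

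Levels of different genes were set side by side only per kilobase of merged exon, as means over the 9 libraries. *maoc-1*, *dhs-28* and *daf-22* led with 161.8, 118 and 82.6 CPM per kb, at percentiles 93.7, 91.2 and 87.8 of the genes tested. *prx-19* followed with 60.6 and *prx-14* with 40.7 CPM per kb. The oxidases were far lower, with *acox-1.5* at 13.8, *acox-3* at 12.8 and *acox-1.1* at 11.9 CPM per kb, and *acox-1.3* and *acox-1.2* were the lowest members at 2.46 and 1.81 CPM per kb. The 3 tandem genes that fell thus ranked 22, 25 and 26 of 26. These means include the restricted libraries, in which the 3 genes were lower. In AL alone *prx-6* (2.57 CPM per kb) and *prx-1* (2.59) lay below *acox-1.2* (3.45), *acox-1.3* (4.59) and *acox-1.4* (6.54). The 10 enzyme genes summed to 621.9 to 644.9 CPM in DR0, 501.3 to 519.9 CPM in DR1 and 552.7 to 556.9 CPM in AL. As shares of total counts these genes took 0.0588% to 0.0608% in DR0, 0.0578% to 0.0601% in DR1 and 0.0503% to 0.0508% in AL. DR1 thus lay below AL under TMM scaling and above it by total counts. The 7 oxidases alone summed to 100.1 to 113.5 CPM in DR0, 105.7 to 115.8 CPM in DR1 and 132.7 to 136.6 CPM in AL. By total counts their share was 0.00943% to 0.0108% in DR0, 0.0122% to 0.0134% in DR1 and 0.0121% to 0.0125% in AL. Only DR0 then lay below AL, and DR1 overlapped AL.

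Other genes of the organelle were taken from a list of 13, of which 12 were tested and *hacl-1* was not found under that symbol. In DR0 against AL, 6 were higher and 3 lower, with a median log2FC of 0.299, and in DR1 against AL 7 were higher and 2 lower, with a median of 0.335. Total-count scaling gave 6 higher and 2 lower in DR0, and 9 higher and 1 lower in DR1. In DR0 against DR1, 5 were higher and 2 lower (3 higher and 6 lower under total-count scaling). *ctl-2*, the peroxisomal catalase that removes hydrogen peroxide, averaged 211 ± 8.74 CPM in DR0, 123 ± 11.6 CPM in DR1 and 75.2 ± 6.69 CPM in AL, and it was higher at 1.49 (0.067) in DR0 and 0.71 (0.068) in DR1. *gstk-1*, a kappa-class glutathione transferase, was lower at -1.25 (0.082) in DR0 and -1.59 (0.082) in DR1. *ech-9*, an enoyl-CoA hydratase relative, was higher in DR1 at 1.6 (0.219), while its DR0 value of 0.46 (0.244) did not pass, and DR0 was lower than DR1 at -1.15 (0.210).

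Mitochondria run their own beta-oxidation, with 19 genes tested from a list of 22. In both comparisons with AL, 8 were higher and 6 lower under TMM scaling, and under total-count scaling 8 were higher and 5 lower in DR0 and 11 were higher and 5 lower in DR1. *cpt-3*, a carnitine palmitoyltransferase gene, averaged 35.4 ± 1.86 CPM in DR0, 17.9 ± 1.19 CPM in DR1 and 1.41 ± 1.11 CPM in AL, at a log2FC of 4.56 (0.231) in DR0 and 3.58 (0.245) in DR1. *hacd-1*, a hydroxyacyl-CoA dehydrogenase gene, was higher at 2.83 (0.060) in DR0 and 2.45 (0.060) in DR1. *cpt-5*, another carnitine palmitoyltransferase gene, was lower at -1.86 (0.236) in DR0 and -1.31 (0.217) in DR1. Of 8 regulators of fat metabolism, not all of them of its oxidation, 6 were higher and 2 lower in DR0 against AL. In DR1 against AL, 5 were higher and 2 lower (6 higher and 0 lower under total-count scaling). The nuclear receptor gene *nhr-80* gave 1.15 (0.130) in DR0 and 0.34 (0.135) in DR1. *hlh-30*, the worm homologue of TFEB, gave 0.92 (0.054) in DR0 and 0.65 (0.054) in DR1, and the SREBP gene *sbp-1* gave 0.87 (0.089) in DR0 and 0.74 (0.088) in DR1.

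Markers of whole tissues moved with the feeding conditions as well. Of 8 intestine markers, 2 were higher and 5 lower in both comparisons with AL (3 higher and 4 lower in DR1 under total-count scaling). Their summed level was 697.8 to 723.6 CPM in DR0, 536.6 to 580.2 CPM in DR1 and 1686 to 1716 CPM in AL. The actin gene *act-5* held the largest share of it, with means of 303.1 CPM in DR0, 205.2 CPM in DR1 and 922 CPM in AL. Under TMM scaling *ges-1* and *elt-7* were the higher markers, *elt-2* passed in neither comparison, and the other 5, *act-5* among them, were lower. Of 5 hypodermis markers tested, 1 was higher and 3 lower in both, with sums of 81.3 to 84.4 CPM in DR0, 68.2 to 69.7 CPM in DR1 and 1068 to 1115 CPM in AL. The collagen gene *col-19* carried most of the AL sum, and the other 4 summed to 40.8 to 47.4 CPM in DR0, 35.1 to 36.7 CPM in DR1 and 56.7 to 61.2 CPM in AL, with *dpy-7* the higher gene. All 10 oocyte and germ line markers were lower in both, with sums of 1565 to 1594 CPM in DR0, 879.3 to 930.7 CPM in DR1 and 2505 to 2553 CPM in AL. Body wall muscle markers summed to 1495 to 1519 CPM in DR0, 702.1 to 748.2 CPM in DR1 and 1519 to 1549 CPM in AL, with 3 of 8 higher and 4 lower in DR0 and 1 higher and 6 lower in DR1 (1 and 4 under total-count scaling). Neuron markers summed to 576.7 to 591.7 CPM in DR0, 448.9 to 462.7 CPM in DR1 and 441.8 to 457.8 CPM in AL, and 4 of 8 were higher and 1 lower in DR0, with 2 higher and 0 lower in DR1. Under total-count scaling 5 neuron markers were higher and 0 lower in DR0, and 6 were higher and 0 lower in DR1. The 2 of 8 sperm markers tested passed in neither comparison. No marker was at 0 in every library, 3 hypodermis and 4 sperm markers being at 0 in some. Their part in the lower *pmp-1*, *acox-1.2*, *acox-1.3* and *acox-1.4* levels, and in the order of *daf-22*, was not tested.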

How the data were processed

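Raw gene counts of 9 polyA-enriched libraries were deposited by the authors, who made them by aligning to WBcel235 with STAR, with annotation from Ensembl release 89, and counting over exons with htseq-count 0.10.0 without strand. The sample notes name STAR 2.73a and the paper's methods STAR 2.6.0a, and the sequencers they name also differ. Totals were 9203611 to 12012750 per library. Of 46926 rows, 25161 had a count.

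Fits were made with edgeR 4.0.16 in R 4.3.3 (filterByExpr, TMM, glmQLFit and glmQLFTest, all 9 libraries in one fit). Adjusted p values are Benjamini-Hochberg over 14332 genes, the s.e. is the absolute log2FC over the square root of F, and the common biological coefficient of variation was 6.59%. Per-kilobase levels used Ensembl release 115 exons. Alternatives were limma-voom (limma 3.58.1), DESeq2 1.42.0, other scalings and filters, fits of only the compared conditions, a replicate block and leaving out each library. The script was tested on simulated data. Members and lists were chosen with earlier results of these data known. Named by rule were all members, the reference genes, and up to 3 genes per list with the largest absolute log2FC. Single tissue markers were named outside this rule. Primers are from the study's primer list. No library was left out.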

Additional observations from a re-analysis of the deposited data

How the results depend on the processing

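Of 49 member calls in the 3 comparisons, 37 held under every alternative and 42 under every alternative but total-count scaling. Requiring the fold as well left 0 higher and 4 lower members in DR0 against AL, 1 and 4 in DR1 against AL, and 0 and 0 in DR0 against DR1. Total-count scaling gave 14 higher members in DR1 against AL, and 2 higher and 12 lower in DR0 against DR1. Leaving out 1 library gave 8 to 10 higher and 9 to 10 lower members in DR0 against AL, 6 to 7 and 9 to 10 in DR1 against AL, and 5 to 7 and 7 to 8 in DR0 against DR1. A replicate block gave 10 higher and 10 lower members in DR0 against AL and changed none of the 78 member calls. Deviations from the condition means gave r of -0.018 to 0.063 between same-numbered libraries and -0.059 to 0.049 between the others. No pairing by number was seen, but deviations within 3 libraries may be too noisy to show a shared culture.

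Total-count scaling turned the sign, in DR1 against AL, of *pmp-3* (0.079), *pmp-5* (0.116), *dhs-28* (0.268), *pmp-2* (0.301), *prx-11* (0.063), *acox-1.1* (0.288) and *prx-19* (0.037). In DR0 against DR1 it turned *maoc-1* (-0.134), *prx-3* (-0.265), *acox-1.6* (-0.258), *pmp-4* (-0.217), *prx-5* (-0.241), *prx-11* (-0.104) and *acox-1.4* (-0.094). Of these 14, *pmp-3*, *prx-19* and *maoc-1* had been called. The alternative's own construction, without the TMM factors, shifts DR1 as a whole. Leaving out 1 library turned only uncalled values, with these ranges. In DR1 against AL they were -0.013 to 0.096 for *prx-3*, -0.091 to 0.248 for *prx-2*, -0.137 to 0.023 for *acox-1.1* and -0.024 to 0.155 for *prx-10*. In DR0 against DR1 they were -0.032 to 0.087 for *prx-3*, -0.116 to 0.033 for *prx-12*, -0.037 to 0.152 for *acox-1.6*, -0.052 to 0.17 for *pmp-4*, -0.069 to 0.136 for *prx-5* and -0.238 to 0.03 for *prx-13*. The cause was not tested. Low counts limit *acox-1.2* and *acox-1.3* most, as their wide intervals show. The condition of the highest mean by total counts and the hypodermis sum without *col-19* were added after seeing the data.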
